A study of Mus musculus with 6 samples.

Results

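The promoters of the mitochondrial ribosomal protein genes were examined in chromatin accessibility data from mouse skeletal muscle. Members were the intervals of the deposited count table whose midpoint lay within 1 kb of an annotated transcription start site (TSS) of a protein-coding gene with a symbol starting with Mrpl or Mrps and then a digit, in the GENCODE vM1 annotation of mm9. This rule found 151 of 39768 intervals, and 20047 intervals lay as close to the TSS of any protein-coding gene. The paper reports a larger number of union intervals for its wide peak model, so the lack of an interval here refers to the deposited set only. The 151 intervals belonged to 72 of 77 genes. No interval lay within 1 kb of Mrpl47, Mrpl49, Mrpl53, Mrps12 or Mrps36-ps1, the last of which carries the name of a pseudogene.

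ATAC-seq, in which the Tn5 transposase cuts open chromatin, was performed on 50000 nuclei per library from muscles of mice aged 7 weeks, C57BL/6 by the labels and backcrossed to C57BL/6N by the methods. Both groups carried floxed H2A.Z-1 and floxed H2A.Z-2 alleles, which encode the histone variant H2A.Z: 3 control (CTL) libraries had no Cre, and 3 libraries labelled H2A.Z dKO carried HSA-Cre. The HSA promoter drives Cre in post-mitotic muscle fibres, so nuclei of the other cell types in a muscle keep H2A.Z. The labels name the tibialis anterior as the source, the methods describe a preparation from single hind limbs, and neither states the number of animals behind each library, so that p-values measure the spread between libraries, which may be in part technical.

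Mitochondrial ribosomes translate the few proteins encoded by mitochondrial DNA, all of them subunits of the respiratory chain or of ATP synthase. Their proteins are encoded in the nucleus, translated in the cytosol and imported, then assembled with mitochondrial ribosomal RNA into a small subunit, which decodes the messenger RNA, and a large subunit, which forms peptide bonds. Many of these proteins descend from bacterial ribosomal proteins, and others are specific to mitochondria. Skeletal muscle depends on this machinery for oxidative metabolism, and several of the genes are mutated in inherited mitochondrial disease.

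Totals ranged from 3520008 to 6117245 counts per library. The library labelled H2A.Z dKO replicate 1 stood apart, with 75.2% of its counts near protein-coding TSSs against 71.3% to 73.1% in the other 5. Within the segment of H2afz that carries the floxed exons, 2 intervals summed to 12.4 ± 2.83 CPM (counts scaled to the library total times its TMM factor, SD, n = 3) in CTL and 11.3 ± 1.28 in the H2A.Z dKO libraries, so the deletion could not be seen there. Of 16 muscle fibre markers, 12 had an interval, and their summed level was 639 to 801 CPM in CTL and 665 to 824 CPM in H2A.Z dKO. Endothelial markers had intervals for 6 of 8 genes and summed to 106 to 122 CPM in CTL and 93.3 to 103 CPM in H2A.Z dKO, without overlap. Fibroblast markers had intervals for 5 of 8 genes and summed to 89.0 to 109 and 105 to 114 CPM, satellite cell markers for 1 of 7 (Cdh15, 27.9 to 45.9 and 41.3 to 51.1 CPM), and macrophage markers for 0 of 7. The part of these cell types in the results on the ribosomal protein genes was not tested, and a change in the share of a cell type cannot be told apart from a change per nucleus in such bulk libraries.

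The sequences before the TSS are shown for the promoters that carry the results. Given from 5′ to 3′ on the gene's own strand in mm9 are up to 150 bases that end just before the TSS and stop at any annotated exon. The first group holds the stretches with the most matches to the marked letters, as cut at exons (Mrpl38, among others, has more in the uncut window). Matches are in capitals: CCAAT for the CCAAT box, GGGCGG for the GC box bound by Sp1, and GCGCANGCG for NRF1. NRF1 is a regulator of nuclear genes for mitochondrial proteins. Each was searched on either strand. The E box, TATAAA and MEF2 letters given further below are not marked or counted here.
Mrps12: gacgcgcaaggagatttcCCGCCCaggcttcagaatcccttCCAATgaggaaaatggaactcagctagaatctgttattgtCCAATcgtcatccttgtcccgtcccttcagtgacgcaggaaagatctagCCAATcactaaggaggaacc
Mrpl32: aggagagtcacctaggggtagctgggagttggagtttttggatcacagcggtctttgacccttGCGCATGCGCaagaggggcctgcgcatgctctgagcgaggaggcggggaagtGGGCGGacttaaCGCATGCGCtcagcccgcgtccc
Mrps6: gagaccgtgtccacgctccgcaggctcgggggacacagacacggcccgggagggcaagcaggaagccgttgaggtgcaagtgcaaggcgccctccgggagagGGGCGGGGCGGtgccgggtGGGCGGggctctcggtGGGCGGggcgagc
Mrpl37: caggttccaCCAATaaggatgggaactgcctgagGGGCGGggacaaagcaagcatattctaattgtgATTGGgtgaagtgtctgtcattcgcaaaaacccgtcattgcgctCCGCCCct
These stretches lie on the minus strand at chr7:29526840-29526989 for Mrps12, at chr13:14705305-14705454 for Mrpl32 and at chr4:106739474-106739592 for Mrpl37, and on the plus strand at chr16:92058365-92058514 for Mrps6. They differ in make-up: Mrps12 held 3 CCAAT boxes and 1 GC box and Mrpl37 held 2 of each. Mrps6 held 4 GC boxes and no other marked letters. Mrpl32 held 3 NRF1 matches, of which a pair overlaps on opposite strands, beside 1 GC box.

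The second group holds the genes on which the levels and the comparison below turn, chosen after their values were seen. Mrps18b had the highest and Mrpl3 the lowest accessibility, Mrpl17 was among the 5 highest, Mrps22 and Mrpl3 had the smallest p-values among intervals that were lower in H2A.Z dKO, and the stretch of Mrps11 is shared with Mrpl46. Capitals mark the same letters and, in Mrps22, CCGGAAGT, the site of ETS factors such as GABPA (NRF2).
Mrps18b: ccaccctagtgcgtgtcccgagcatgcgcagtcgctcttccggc
Mrpl17: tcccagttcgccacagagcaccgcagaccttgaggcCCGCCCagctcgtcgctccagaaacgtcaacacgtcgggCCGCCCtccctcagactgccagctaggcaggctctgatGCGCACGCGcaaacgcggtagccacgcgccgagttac
Mrps11: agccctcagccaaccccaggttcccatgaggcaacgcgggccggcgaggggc
Mrps22: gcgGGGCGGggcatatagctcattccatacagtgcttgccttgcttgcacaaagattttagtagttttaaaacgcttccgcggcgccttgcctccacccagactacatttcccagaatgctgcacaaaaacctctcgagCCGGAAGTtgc
Mrpl3: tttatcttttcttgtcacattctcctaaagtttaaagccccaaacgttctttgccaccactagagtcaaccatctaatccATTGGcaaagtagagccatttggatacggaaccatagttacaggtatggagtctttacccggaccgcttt
The stretches of Mrps18b (chr17:36053335-36053378), Mrpl17 (chr7:112959614-112959763) and Mrps22 (chr9:98502099-98502248) are on the minus strand, and those of Mrps11 (chr7:85927953-85928004) and Mrpl3 (chr9:104955419-104955568) on the plus strand. The 44 bases of Mrps18b and the 52 of Mrps11 hold no match, and each is the whole gap between a pair of genes that are transcribed away from each other: Mrps18b and Ppp1r10, and Mrps11 and Mrpl46, whose products sit in the small and in the large subunit. The stretch of Mrps22 ends in an ETS match that begins 11 bases before the TSS. Of the letters marked in capitals, the stretch of Mrpl3 has only a CCAAT box, on the reverse strand 70 bases before the TSS. This box lies inside the single interval of Mrpl3.

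Over the window from 250 bases before the TSS to 50 bases from the TSS on, 33 of the 72 promoters with an interval (45.83%) held an ETS, NRF1 or YY1 match, against 25.31% of the promoters of all 10980 protein-coding genes with an interval. NRF1 letters were present in 16 of 72 (22.22%, all genes 14.96%), ETS letters in 11 (15.28%, all genes 9.04%) and the letters AAGATGGCG of YY1, a factor that binds many genes of mitochondrial proteins, in 8 (11.11%, all genes 3.69%). One YY1 match lies in the windows of both Mrps11 and Mrpl46. The GC box went the other way, with 54.17% against 70.07%, while CCAAT boxes were as frequent as elsewhere (37.50% and 38.54%). TATAAA was found in 6.94% (all genes 5.53%), the CRE letters TGACGTCA in 1.39% (3.70%), CTCGCGAG in 1.39% (2.12%) and the E box CANNTG in 58.33% (60.24%). The letters TCAAGGTCA for ERR and CTATTTTTA for MEF2 were in none of the 72 windows and in 0.26% and 0.34% of all. These shares are descriptions of letters, with both strands searched and overlapping matches counted, and they were not tested.

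**Figure D1:**
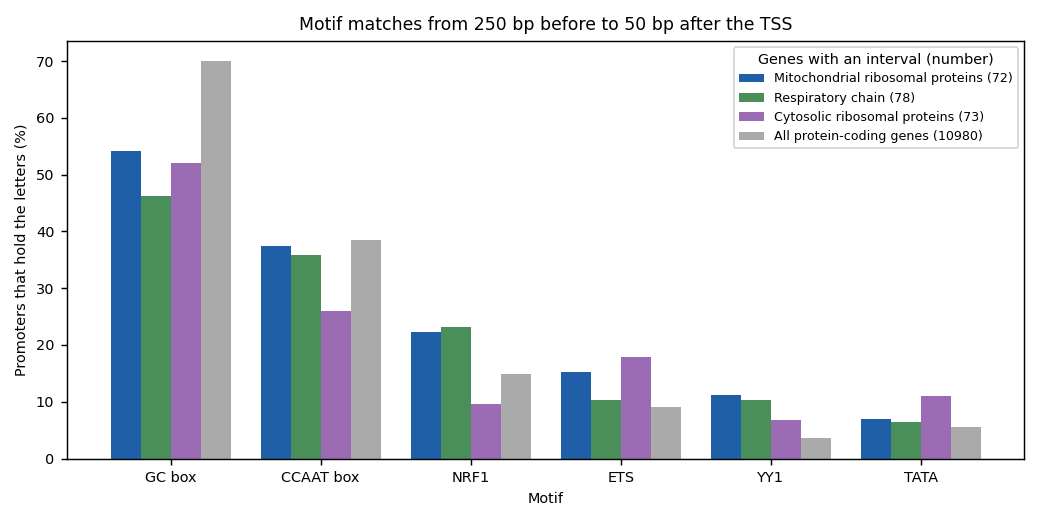
Share of promoters (%, vertical axis) that hold each motif's letters on either strand in the window from 250 bp before to 50 bp after the TSS, for genes with an interval. NRF1, ETS and YY1 letters were more frequent in the 72 mitochondrial ribosomal protein promoters (22.22%, 15.28% and 11.11%) than over all protein-coding genes (14.96%, 9.04% and 3.69%), and GC boxes less frequent (54.17% and 70.07%).

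The 24 NRF1 matches began at a median of -46.5 (from -170 to 31), counted with the TSS as base 0, the 11 ETS matches at -25 (from -129 to 10) and the 8 YY1 matches at 10 (from -96 to 35), with 6 of the 8 after the TSS. These places were not compared with those in other genes. ETS matches began at the TSS itself in Mrps26 and at -11 in Mrps22 and -12 in Mrpl43, while Mrpl3 had one at 10. Genes encoding subunits of the respiratory chain, whose products depend on the mitochondrial ribosome, had NRF1 in 23.08%, YY1 in 10.26%, ETS in 10.26%, a GC box in 46.15% and an E box in 71.79% of 78 promoters. Their NRF1 and YY1 shares were near those of the members, while their ETS share was nearer that of all genes and their E box share was above the 58.33% of members. The promoters of cytosolic ribosomal proteins had NRF1 in 9.59% of 73, ETS in 17.81% and a GC box in 52.05%, so the GC box share of all 3 groups was below the 70.07% of all genes with an interval. These shares were not tested. Among the members, the median level of main intervals was higher with the motif for 4 of the 5 motifs compared and lower for ETS. It was 138 RPKM (counts per width and depth, defined with the levels) with NRF1 and 127 without, 148 with YY1 and 128 without, 148 with a GC box and 114 without, 137 with a CCAAT box and 124 without, and 113 with ETS and 136 without.

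Most of the genes had a compact open promoter. Of the 72 genes, 18 had 1 interval, 38 had 2, 11 had 3, 4 had 4, and Mrpl48 had 10. Of the 151 intervals, 20 overlapped the one before them, which left 131 separate stretches. Their widths ran from 9 to 718 bp with a median of 185. Midpoints lay upstream of the nearest member TSS in 89 and downstream in 62, and by annotation 70 were upstream, 36 in introns, 31 in untranslated exon parts, 8 in coding exons and 6 in noncoding exons. At the limit of the rule, the farthest interval inside lay 985.5 bp from a TSS of Mrps18a, with a mean count of 58.5, and the nearest outside 1167 bp from a TSS of the same gene, with a mean count of 17.8. For 27 intervals the nearest protein-coding TSS belonged to another gene.

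**Figure D2:**
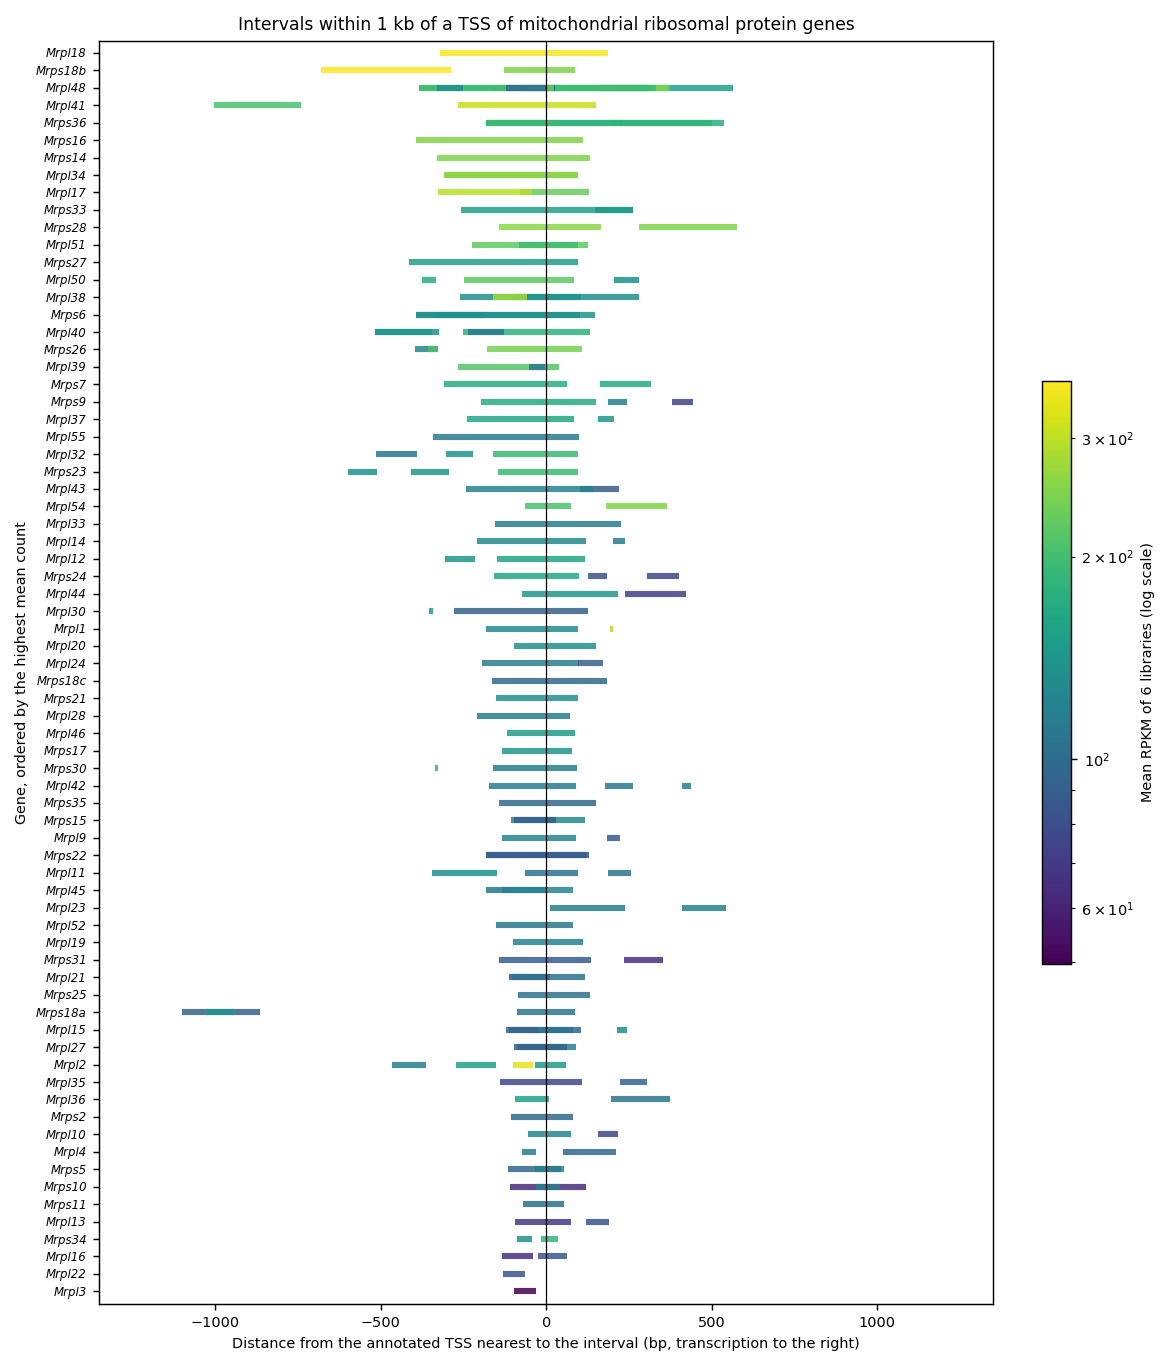
Intervals within 1 kb of a TSS for each gene with an interval, drawn by distance from the nearest annotated TSS of that gene (bp, horizontal axis) and coloured by mean RPKM of the 6 libraries (log scale). Most genes have an interval across the TSS, Mrps18a and Mrpl41 also have intervals near -1 kb, and Mrpl48 combines intervals at several alternative TSSs; an interval shared by Mrps11 and Mrpl46 is drawn under Mrpl46.

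The interval with the highest mean count was taken as the main interval of each gene. In most genes it lay close to the TSS. Its midpoint was within 100 bp of the TSS in 56 of 72 genes (77.8%, against 66.7% over all protein-coding genes with an interval), and 50 of 72 midpoints (69.4%) were upstream. The main intervals of Mrps18a and Mrps18b lay farther off, 982.5 and 484 bp upstream. Main intervals were narrower than over all genes (median 263 and 300 bp) and had a GC content of 63.4% against 65.7%. A gene transcribed in the opposite direction started within 1 kb in 24 of 72 members (33.3%), against 16.7% of all protein-coding genes with an interval, 34.6% of respiratory chain genes and 15.1% of cytosolic ribosomal protein genes. Members with such a partner had a median of 149 RPKM and those without one 123. For 11 genes the main interval was nearer the TSS of another gene, as with Tcp1 for Mrpl18, Ppp1r10 for Mrps18b, Rab6 for Mrpl48 and Gga3 for Mrps7, and its counts cannot be assigned to one of the pair.

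Almost every member was accessible, and at a level near the middle of all genes. An interval was present for 93.5% of the 77 genes, against 49.1% of all 22380 protein-coding genes, 84.8% of 92 respiratory chain genes and 54.5% of 134 genes named Rpl or Rps, which include many copies. Levels are given as RPKM, the count divided by the interval's width in kb and by the library's sum over all intervals, per 1000000 counts. The median over the 72 main intervals was 131 RPKM, with an interquartile range of 107 to 179, while all protein-coding genes had 140, respiratory chain genes 142 and cytosolic ribosomal protein genes 155. The lowest and highest members were 7.35-fold apart. Of the 72 members, 30 lay above the median of all genes, 10 within its top 10% and 4 within its bottom 10%.

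Mrps36, a member by its symbol with 4 intervals, was left without a class and is not in any value by class or subunit. By role, median main intervals were highest for mitochondria-specific proteins of the small subunit (median 153 RPKM, 10 genes) and of the large subunit (148 RPKM, 17 genes). The other homologues of bacterial proteins had 140 RPKM in the small subunit (15 genes) and 114 RPKM in the large subunit (29 genes). Mrps18a and Mrps18b were placed in the mitochondria-specific classes, although their products are homologues of a bacterial protein too. In every library the median of the small subunit was above that of the large: 150, 145 and 140 RPKM against 125, 124 and 124 in CTL, and 123, 156 and 157 against 121, 125 and 128 in H2A.Z dKO. The gap was 2.7 RPKM in H2A.Z dKO replicate 1 and at least 15.5 RPKM in the other 5 libraries. The interquartile ranges of mean RPKM overlapped, at 97.65 to 184.5 for the small subunit and 111.2 to 173.6 for the large. The lower quartile was thus lower in the small subunit. All libraries measure the same genes and intervals, so their agreement is not independent, and differences between classes or subunits were not tested. The order of genes was stable, with a rank correlation of 0.976 between the CTL and the H2A.Z dKO means across the 72 genes, which share promoter sequence and interval width in both groups. Neighbours in that order mostly could not be told apart, since 66 of 71 neighbouring pairs differed by no more than their pooled SD.

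**Figure D3:**
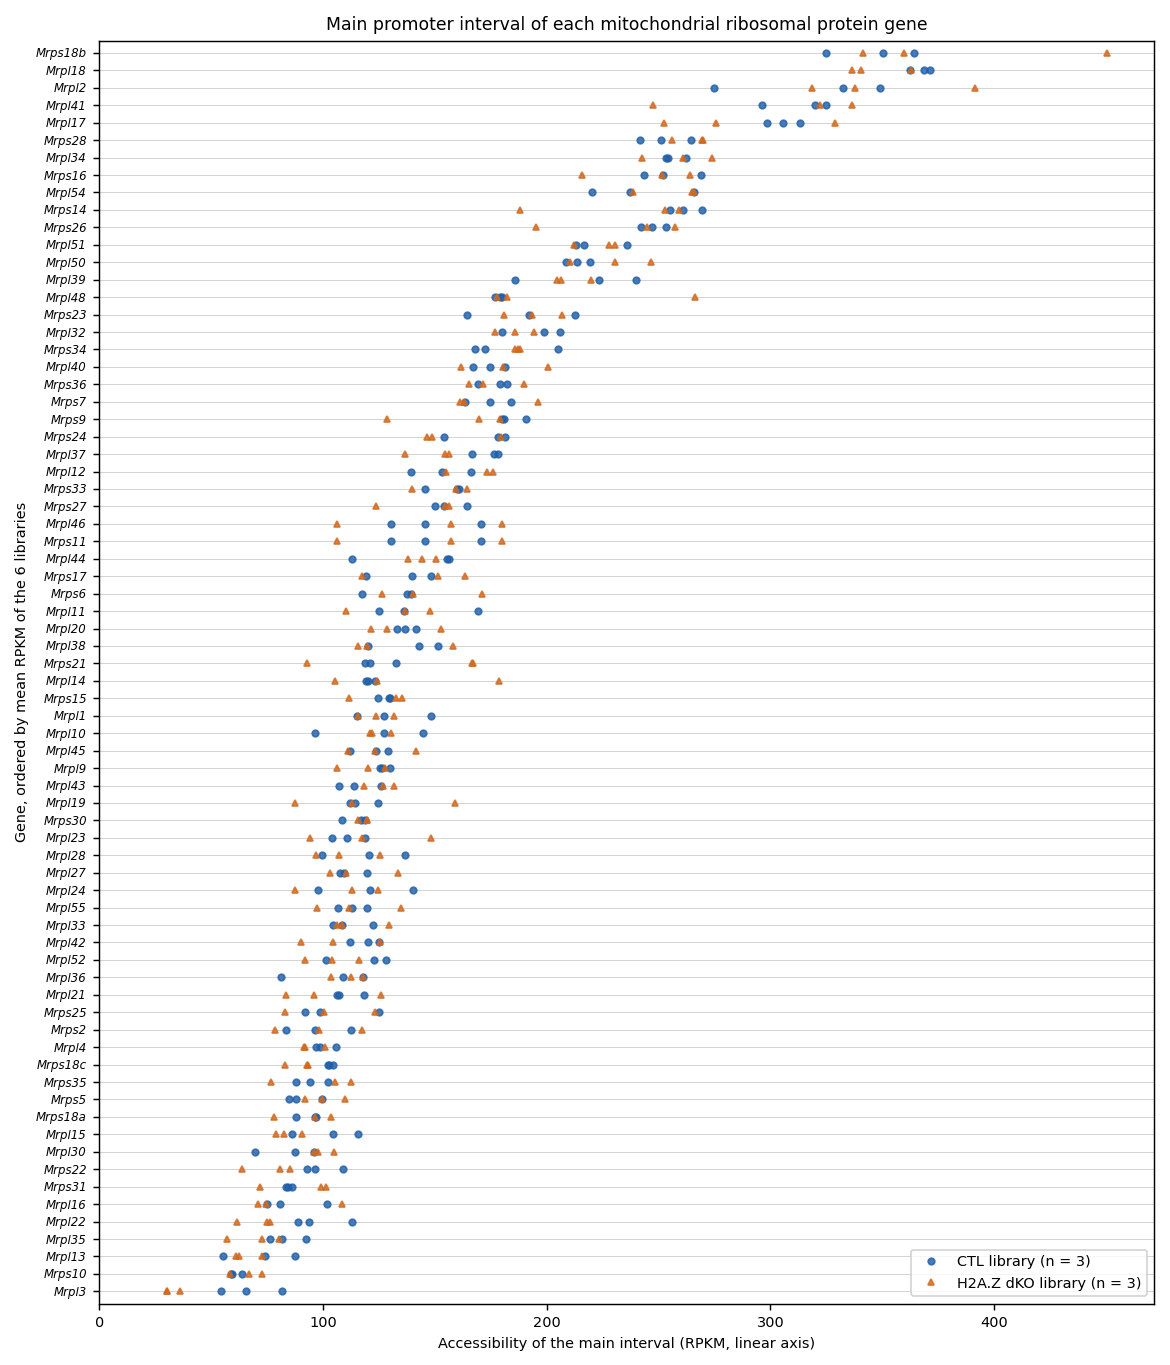
Accessibility of the main interval in RPKM (linear axis) for the 72 genes, ordered by their mean, with 3 CTL libraries as circles and 3 H2A.Z dKO libraries as triangles. The range from Mrpl3 to Mrps18b is 7.35-fold and the groups overlap for most genes, while the 3 CTL circles of Mrpl3 (54.5 to 81.8 RPKM) lie above its triangles (30.0 to 36.1 RPKM); Mrps11 and Mrpl46 share an interval.

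The 6 genes at the top were Mrps18b, Mrpl18, Mrpl2, Mrpl41, Mrpl17 and Mrps28. The main interval of Mrps18b, which encodes mS40, a mitochondria-specific small subunit protein, had 350, 364 and 325 RPKM in CTL replicates 1 to 3 and 451, 360 and 341 RPKM in H2A.Z dKO. It lies at chr17:36053623-36054013, 484 bp upstream of the TSS and across an exon of Ppp1r10. Mrpl18 encodes uL18 of the central protuberance of the large subunit, and its interval had 369, 363 and 372 RPKM in CTL and 336, 363 and 341 RPKM in H2A.Z dKO. Mrpl2 encodes uL2, which lies near the catalytic centre, and a 60-bp interval upstream of its TSS had 332, 349 and 275 RPKM in CTL and 337.7, 318.7 and 391.7 RPKM in H2A.Z dKO. The groups overlapped for Mrps18b and Mrpl2, as they did for Mrpl18 in RPKM, but not in CPM scaled with TMM factors.

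Mrpl41, which encodes mL41, had 296, 320 and 325 RPKM in CTL and 248, 337 and 322 RPKM in H2A.Z dKO. Mrpl17, which encodes bL17 near the exit of the peptide tunnel, had 306, 298 and 313 RPKM in CTL and 329, 276 and 253 RPKM in H2A.Z dKO. Mrps28, which encodes bS1 of the small subunit, had 241, 251 and 265 RPKM in CTL and 256, 270 and 270 RPKM in H2A.Z dKO. All 3 pairs of groups overlapped, and their log2 fold changes were -0.06, -0.09 and 0.07.

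At the bottom stood large subunit genes, joined by Mrps10, which encodes uS10 of the small subunit and had 59.1, 59.0 and 63.8 RPKM in CTL and 58.5, 72.6 and 66.7 RPKM in H2A.Z dKO. Mrpl13 (uL13) had 55.1, 74.1 and 87.4 RPKM in CTL and 72.5, 61.1 and 62.5 RPKM in H2A.Z dKO, and Mrpl16 (uL16) had 80.8, 102 and 75.1 against 74.4, 109 and 71.0 RPKM. Groups overlapped for these 3 genes. Mrpl35 (bL35) had 81.7, 76.4 and 92.4 RPKM in CTL and 80.3, 57.2 and 72.9 RPKM in H2A.Z dKO, with 1 library inside the CTL range. The interval of Mrpl35 was listed for CTL only, the group with the higher mean, which favours a lower H2A.Z dKO value. Mrpl22 (uL22, which lines the peptide tunnel) had 93.8, 89.0 and 113 RPKM in CTL and 75.1, 61.4 and 76.1 RPKM in H2A.Z dKO, without overlap, in an interval that was listed for CTL only and so entered the table through the higher group. Its mean count was 28.2, and at this depth the log2 fold change of -0.45 ± 0.24 (SE) did not pass the test (adjusted p = 0.972, edgeR). Mrpl3, the lowest of all, is described with the comparison.

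A further set of genes was named for the roles of their products. Mrpl10 and Mrpl12, whose proteins form the stalk that recruits translation factors, had 123 ± 24.5 and 153 ± 13.5 RPKM in CTL (SD, n = 3) and 124 ± 5.08 and 168 ± 11.5 RPKM in H2A.Z dKO. Mrpl11, at the base of the stalk, had 143 ± 23.0 and 131 ± 19.3 RPKM. Mrpl23 and Mrpl24, at the rim of the exit tunnel, had 111 ± 7.20 and 119 ± 21.2 RPKM in CTL and 120 ± 27.2 and 108 ± 19.0 RPKM in H2A.Z dKO. Mrpl45, which anchors the ribosome to the inner membrane, had 122 ± 8.69 and 125 ± 15.4 RPKM. The groups overlapped in each of these 6 genes, and none had an adjusted edgeR p under 0.05.

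In the small subunit, Mrps7 (uS7, in the head where transfer RNAs pass) had 174 ± 10.3 RPKM in CTL and 173 ± 19.5 RPKM in H2A.Z dKO, and Mrps5 (uS5, near the messenger RNA entry) had 90.7 ± 7.74 and 100 ± 8.82 RPKM. Mrps12 encodes uS12 of the decoding centre and had no interval within 1 kb, although its TSS lies 171 bp from that of Sars2, a mitochondrial transfer RNA synthetase gene transcribed away from it. Of the 3 homologues of bacterial S18, Mrps18b had the highest level of all members, while Mrps18c had 103 ± 1.10 RPKM in CTL and 89.8 ± 5.95 RPKM in H2A.Z dKO, and Mrps18a had 93.7 ± 5.07 and 92.5 ± 13.1 RPKM at an interval 982.5 bp before its TSS. The log2 fold change of Mrps18c was -0.20 ± 0.15 (SE, adjusted p = 0.972, edgeR), with groups that did not overlap. Mrps18a and Mrps30 keep small subunit names, but their products, mL66 and mL65, sit in the large subunit. Mrps30 had 115 ± 5.39 and 118 ± 2.41 RPKM.

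The comparison of H2A.Z dKO with CTL asked whether accessibility at these promoters differed with HSA-Cre, which was used to remove H2A.Z from muscle fibres. The extent of that loss in the nuclei of these libraries could not be read from the counts. No member interval passed the test: with edgeR's quasi-likelihood test and Benjamini-Hochberg adjustment over all intervals, 0 of 151 had an adjusted p under 0.05, the smallest was 0.972, and DESeq2 also called 0. Over all intervals 0.0% were called. At an unadjusted p under 0.05 there were 5 of 151 (3.31%), of which 2 were higher and 3 lower in H2A.Z dKO, against 4.95% of all intervals (2.64% higher, 2.31% lower) and 3.74% of protein-coding promoter intervals. DESeq2 had 2 at this level (1.32%), against 1.9% of all intervals in the same DESeq2 fit.

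The median log2 fold change was 0.0055 over the 151 intervals, with 79 above and 72 below 0, against 0.011 over all protein-coding promoter intervals. Its sign was not stable: the median was -0.019 without H2A.Z dKO replicate 1, -0.014 with 1 interval per gene and 0.021 when each library had to hold 20 counts or more. The lowest was -1.0 and the highest 0.55, and the median size of the change was 0.10. For 146 of 151 intervals (96.7%) the 95% confidence interval of the fold change lay within 2-fold in either direction, and for 106 (70.2%) within 1.5-fold, against 96.4% and 66.0% of protein-coding promoter intervals. Among the main intervals, 67 of 72 (93.1%) were bounded within 1.5-fold, against 82.3% over all genes. The 3 H2A.Z dKO libraries lay all above or all below the 3 CTL libraries in 17 intervals (11.3%), beside 10.8% of all intervals. Of these, 8 were higher and 9 lower, against 5.22% and 5.63% of all intervals. Not every member interval entered through both groups: 88 of 151 did (58.3%, against 52.9% of protein-coding promoter intervals). Another 43 were listed through H2A.Z dKO alone, and 20 through CTL alone. Entry through a single group can favour a higher value in that group. Its effect on the median, the unadjusted p-values and the counts without overlap was not tested.

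**Figure D4:**
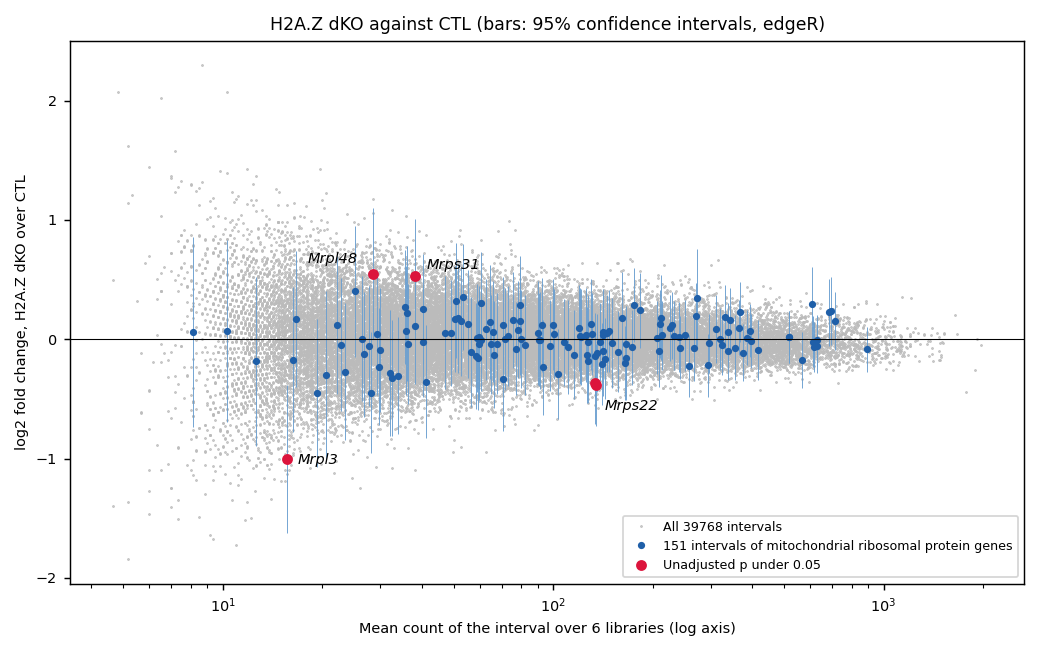
Log2 fold change of H2A.Z dKO over CTL (vertical axis) against the mean count of 6 libraries (log axis), with all 39768 intervals in grey and the 151 member intervals in blue with 95% confidence intervals. The 5 intervals with an unadjusted p under 0.05 are in red; Mrpl3 lies at -1.0 with a mean count of 15.7; the spread of the members narrows as the count rises.

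In total the member intervals took 0.512%, 0.518% and 0.515% of the counts in CTL replicates 1 to 3 and 0.535%, 0.512% and 0.516% in H2A.Z dKO. The means were 0.515% ± 0.0031 and 0.521% ± 0.0126 (SD, n = 3), and without H2A.Z dKO replicate 1 the second was 0.514%. The groups overlapped, and only the replicate that stood apart exceeded the CTL libraries. The large subunit took 0.319% ± 0.0025 in CTL and 0.325% ± 0.0120 in H2A.Z dKO, and the small subunit 0.169% ± 0.0027 and 0.169% ± 0.0025. Cytosolic ribosomal protein genes took 0.503% ± 0.0061 and 0.514% ± 0.0102, and respiratory chain genes 0.540% ± 0.0051 and 0.533% ± 0.0139. Medians over the main intervals were 129.7, 131.4 and 125.0 RPKM in CTL and 121.7, 129.3 and 138.4 RPKM in H2A.Z dKO, which also overlapped.

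Mrpl3 had the smallest p-value of the members. Its interval was listed for CTL only, so it entered the table through the group in which it was higher, and this selection favours a lower H2A.Z dKO value. Mrpl3 encodes uL3, which reaches towards the peptidyl transferase centre, and the single interval, chr9:104955473-104955538, covers 66 bp of the stretch shown above. CTL replicates 1 to 3 had 22, 20 and 19 counts and the H2A.Z dKO replicates 14, 9 and 10, which is 4.44 ± 0.89 and 2.12 ± 0.29 CPM (SD, n = 3). All 3 H2A.Z dKO libraries were below all 3 CTL libraries. The log2 fold change was -1.0 ± 0.30 (SE), with a 95% confidence interval from -1.62 to -0.39, an unadjusted p of 0.0028 and an adjusted p of 0.972 (edgeR). It ranged from -1.16 to -0.87 when each library was left out, with the unadjusted p under 0.05 in 6 of 6. These fits share that selection and are no independent support. The mean count was 15.7 and the adjusted p was at least 0.437 under the alternatives that tested the interval, so the difference was not called. The filter of at least 20 counts in every library left the interval out.

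Mrps22 encodes mS22, a mitochondria-specific small subunit protein that is mutated in mitochondrial disease. Its 2 intervals, chr9:98501969-98502281 and a nearly identical one inside it, hold nearly the same counts and the ETS match shown above. The wider had 178, 158 and 106 counts in CTL and 117, 115 and 134 in H2A.Z dKO, or 31.1 ± 2.69 and 23.9 ± 3.0 CPM, without overlap. The log2 fold change was -0.38 ± 0.17 (SE) with an unadjusted p of 0.0314 and an adjusted p of 0.972 (edgeR), and it was -0.37 in the overlapping interval. Without H2A.Z dKO replicate 1 it was -0.28, and the unadjusted p was under 0.05 in 3 of 6 fits that left out a library.

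Mrps31 encodes mS31 of the small subunit. An intronic interval 294.5 bp after its TSS (chr8:23522048-23522165) had 37, 35 and 18 counts in CTL and 49, 42 and 49 in H2A.Z dKO, or 6.24 ± 1.25 and 9.10 ± 0.51 CPM, again without overlap, and was listed for H2A.Z dKO only, the group in which it was higher. The log2 fold change was 0.53 ± 0.23 (SE) with an unadjusted p of 0.0331 and an adjusted p of 0.972 (edgeR), and the former was under 0.05 in 2 of 6 fits that left out a library. Its main interval, across the TSS, had 84.7 ± 1.37 and 90.8 ± 16.4 RPKM and a log2 fold change of 0.09.

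Mrpl48, which encodes mL48 of the central protuberance, shares its promoter region with Rab6, a gene of vesicle transport whose TSS lies 52 bp away on the opposite strand. A 24-bp interval in a noncoding exon that also overlaps an exon of Rab6, chr7:107756787-107756810, had 29, 22 and 15 counts in CTL and 43, 21 and 41 in H2A.Z dKO. CPM were 4.59 ± 0.29 and 6.71 ± 1.89, and H2A.Z dKO replicate 2 lay within the CTL range. The log2 fold change was 0.55 ± 0.26 (SE) with an unadjusted p of 0.0486 and an adjusted p of 0.972 (edgeR). The former was under 0.05 in 1 of 6 fits that left out a library. The main interval had 177, 180 and 179 RPKM in CTL and 266, 182 and 178 RPKM in H2A.Z dKO, so that only replicate 1 was high. A pair of overlapping intervals nearby depended on that library: their log2 fold changes were 0.30 and 0.35 with it and 0.035 and -0.017 without it.

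**Figure D5:**
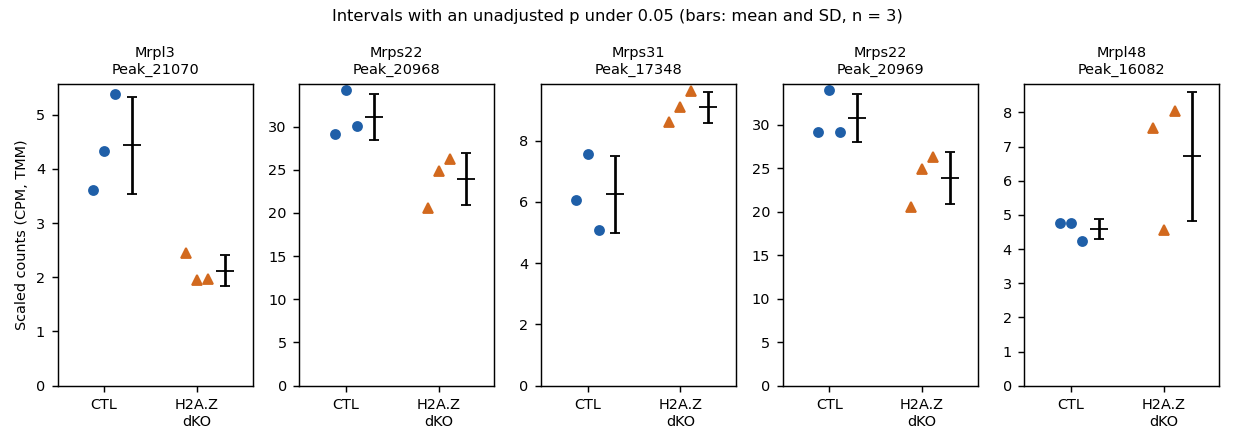
Scaled counts (CPM with TMM factors, axis from 0) of the 5 intervals with an unadjusted p under 0.05, per library, with the mean and SD of each group (n = 3) beside the points. Groups are apart in Mrpl3, in both Mrps22 intervals, which overlap each other, and in Mrps31, while 1 H2A.Z dKO library of Mrpl48 lies among the CTL libraries.

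In Mrpl51 (mL51) the main interval, over the gene's TSS, had a log2 fold change of 0.012 (adjusted p = 0.999, edgeR). A second interval over an alternative TSS, chr6:125142101-125142279, had 188, 145 and 120 counts in CTL and 248, 169 and 187 in H2A.Z dKO, a log2 fold change of 0.29 ± 0.15 (SE, adjusted p = 0.972, edgeR). In Mrps28 an intronic interval had 411, 347 and 218 counts in CTL and 520, 337 and 381 in H2A.Z dKO, a log2 fold change of 0.23 (adjusted p = 0.972, edgeR), which was 0.11 without H2A.Z dKO replicate 1. Downward, Mrpl37 (mL37) had 350, 267 and 190 counts in CTL and 260, 228 and 254 in H2A.Z dKO, a log2 fold change of -0.23 (adjusted p = 0.972, edgeR). Mrps9 (uS9) had 408, 293 and 222 counts in CTL and 264, 285 and 298 in H2A.Z dKO, a log2 fold change of -0.22 (adjusted p = 0.972, edgeR), which was -0.10 without H2A.Z dKO replicate 1. None of these passed the test.

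By class, the 56 intervals of bacterial-type large subunit genes had a median log2 fold change of -0.037 (0 up and 1 down with p under 0.05 before adjustment, edgeR) and the 47 of mitochondria-specific large subunit genes 0.042 (1 up, 0 down). The 27 intervals of bacterial-type small subunit genes had 0.07 (0 and 0) and the 19 of mitochondria-specific small subunit genes -0.014 (1 up, 2 down, both in overlapping Mrps22 intervals). In that order the classes had 1.79%, 2.13%, 0% and 15.8% of their intervals at this level, against 4.95% of all intervals, and the last share rests on 3 intervals of 2 genes. Mitochondrial ribosomal proteins with other names, such as Dap3 (mS29) and Ict1 (mL62), had intervals for 7 of 7 genes, and 0 of their 20 intervals had an unadjusted p under 0.05. Dap3 had 150 ± 4.31 RPKM in CTL and 169 ± 58.8 RPKM in H2A.Z dKO.

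Among mitochondrial translation factors, 13 of 13 annotated genes had an interval, and of 26 intervals 1 in each direction had p under 0.05 before adjustment (edgeR). The higher was in Mrrf, the ribosome recycling factor, where CTL had 88, 74 and 51 counts and H2A.Z dKO 117, 86 and 106 (log2 fold change 0.42 ± 0.18, SE). The lower was in Guf1, an elongation factor that had 16, 12 and 9 CTL counts against 10, 5 and 6 for H2A.Z dKO (-0.92 ± 0.35). Tufm, the main elongation factor, had 176 ± 1.62 and 183 ± 5.10 RPKM. Mitochondrial transfer RNA synthetases had intervals for 16 of 17 genes and 1 of 35 intervals higher, in Wars2 (0.34 ± 0.16), and 0 lower. Factors that assemble the mitochondrial ribosome had intervals for 21 of 21 annotated genes, with 0 of 45 at this level. Over the 4 lists, 0 intervals had an adjusted p under 0.05 (edgeR, Benjamini-Hochberg), 3 of 126 had an unadjusted p under 0.05 (4.95% of all intervals), and DESeq2 had 0 (1.9% of all). That count was 7 without H2A.Z dKO replicate 1, where the share of all intervals rose to 7.95%, 5 without H2A.Z dKO replicate 2 (5.38% of all) and 1 without CTL replicate 3 (3.18% of all).

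For the most similar groups the intervals with an unadjusted p under 0.05 (edgeR) numbered 5 of 175 for cytosolic ribosomal protein genes (2.86%, 3 of them higher) and 2 of 167 for respiratory chain genes (1.20%, both lower), with 0 adjusted calls in both. Their median log2 fold changes were 0.041 and 0.0064, beside 0.0055 for the mitochondrial ribosomal protein genes. At an unadjusted p under 0.05 (edgeR) the share over all intervals was 4.95%.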

How the data were processed

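The authors trimmed adapters with Trimmomatic, aligned to mm9 with Bowtie2, removed duplicates with Picard, shifted fragment ends for Tn5, called peaks with MACS2 and deposited raw counts of fragment ends per interval. They also deposited, from DESeq2, a mean signal of scaled counts (its name is missing in the header), the log2 fold change, its standard error and Wald score, and p-values, none used here, besides a constant weight. 0 columns of per-sample values were left unused.

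All intervals were fitted with edgeR 4.0.16 in R 4.3.3 (TMM factors 0.971 to 1.02, robust quasi-likelihood test, no block or filter), with Benjamini-Hochberg adjustment and a threshold of 0.05. For the SE, the size of each log2 fold change was divided by sqrt(F). After these fits, the test was also run on counts simulated with the means and dispersions of the main fit, with results not given here. Start coordinates were taken as 0-based, since the narrowest intervals are then 9 bp wide, and are printed 1-based. The methods give 9 bp to the narrow peak model and 73 bp to the wide one, while the deposited counts are labelled wide. Which model set the interval widths is therefore uncertain. Alternatives were DESeq2 1.42.0, limma voom 3.58.1, other scalings, filters and member definitions, a replicate block and leaving out each library. Errors cover the spread between 3 libraries and counting error, not PCR copies. Members, gene lists and motifs were chosen with earlier results of these data known. Named were the 6 highest and 6 lowest main intervals, the 6 smallest p-values each way, all intervals with an unadjusted p under 0.05, genes without interval and 14 genes chosen for their roles. Of the listed pathway genes, Slirp, Noa1 and Malsu1, and of the macrophage markers Spi1, matched no symbol. Sequences were read from mm9 with pysam 0.24.0, and tables handled in Python 3.11.15 with pandas 2.3.3.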

Additional observations from a re-analysis of the deposited data

How the results depend on the processing

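No member interval had an adjusted p under 0.05 in any fit. The 5 intervals with an unadjusted p under 0.05 became 2 with DESeq2 (1.9% of all intervals), 8 with loess offsets (5.14% of all), 3 with at least 20 counts in every library (3.5% of all), 2 with 1 interval per gene (3.57% of the main intervals of protein-coding genes), and 1 at a threshold of 0.01 (0.913% of all). They were 2 to 8 when each library was left out: 2 without CTL replicate 1 or 3 (4.92% and 3.18% of all intervals), 3 without CTL replicate 2 (4.21%), 5 without H2A.Z dKO replicate 1 (7.95%), and 8 without H2A.Z dKO replicate 2 or 3 (5.38% and 5.6%). The 17 intervals whose groups do not overlap became 22 to 39 when a library was left out. The share over all intervals then rose to 18.1% to 24.9%. With 1 interval per gene, groups did not overlap in 8 of 71 (11.3%), beside 10.7% of all protein-coding promoter intervals, main or not. The pathway count of 3 became 0 with DESeq2 and 1 to 7 with each library left out, where the share of all intervals was 3.18% to 7.95%, highest in the fit that gave 7. The CTL share of 0.515% became 0.508% with at least 20 counts, 0.505% with a narrower distance to the TSS, 0.460% with TSSs of protein-coding transcripts and 0.343% with 1 interval per gene, and the H2A.Z dKO share 0.458% and 0.340% for the last pair. For Mrpl48, the interval with 0.35 ranged from -0.017 without H2A.Z dKO replicate 1 to 0.52 without H2A.Z dKO replicate 2. The cause of these shifts was not tested, except that the last definitions keep fewer intervals. With a replicate block 4 members had an unadjusted p under 0.05 (4.42% of all intervals). Replicate numbers did not pair the libraries (correlations of -0.098, -0.053 and -0.032), and no library of either group correlated best with its own number. RPKM and CPM ordered the main intervals with a rank correlation of 0.776, so the order of levels depends on dividing by width. At its mean of 15.7 counts, the 95% confidence interval of Mrpl3 ran from -1.62 to -0.39.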
